A study of Mus musculus with 6 samples.

Results

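Potassium channel subunits other than the Kcnq family were examined in mouse embryos at embryonic day 12.5, in the medial ganglionic eminence (MGE), a transient swelling of the ventral forebrain in which many cortical interneurons are born. The members were all genes of the deposited table whose symbol is Kcn, 1 or more lower-case letters and a final number, without those starting Kcnq. The rule found 87 of 34745 genes. Of these, 35 encode pore-forming subunits of voltage-gated channels, 11 auxiliary subunits of such channels, 15 inward rectifiers, 14 tandem-pore (K2P) channels, and 12 calcium-activated channels with their sodium- or pH-activated relatives and beta subunits. RNA was sequenced from 3 Sp9 null (Sp9-/-) samples and from 3 wild type samples of littermates. Both groups have the same mixed descent from C57BL/6J, 129S6 and CD1 mice. The labels do not say how the null allele was made, nor whether a sample held 1 embryo or several, so the p-values speak of differences among these samples, and their spread may be technical.

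Potassium channels let potassium ions cross the membrane along their gradient, and so set the resting potential and shape the return to rest after an action potential. Voltage-gated subunits open on depolarization, inward rectifiers and K2P channels carry current near rest, and calcium-activated channels couple potassium efflux to intracellular calcium. In mature cortical interneurons, channels of the Kcnc group are known for allowing fast firing, and glial cells are known for inward rectifiers.

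Library totals were 6826447, 10979280 and 9430442 counts in Sp9 null replicates 1, 2 and 3, and 9536050, 10914147 and 9917457 in the wild type replicates. The 87 genes took between 0.0382% and 0.0553% of the counts of a library, so many of them rest on few reads. Sp9 itself, a zinc finger transcription factor of the ventral forebrain, had 89, 116 and 118 counts in the null and 1939, 2700 and 1870 counts in the wild type libraries. Its log2 fold change was -4.13, with an SE of 0.14 (edgeR, adjusted p = 2.54e-05). By the exact permutation test (two-sided) p was 0.1, and 3 libraries a group cannot give less. The 5 MGE markers (Nkx2-1, Lhx6, Lhx8, Dlx2 and Dlx5) summed to 2124 to 2168 CPM in the null and 2042 to 2132 CPM in the wild type libraries, where CPM is the count relative to the library total. The near-equal sums cover members that moved in opposite directions: with the replicate number as a block, Dlx2 rose by 0.39 (log2, edgeR, adjusted p = 3.91e-05) and Lhx6 had a log2 fold change of -0.45 (edgeR, adjusted p = 6.01e-06). Neither gene overlapped between the genotypes, where 13.0% of all tested genes did not overlap. Without the block, 0 of the 5 were called. Replicate 2 of both genotypes stood apart from the other libraries. The pallial marker genes summed to 1.09 CPM in null replicate 2, against 26.5 and 46.8 CPM in the other null libraries. In wild type replicate 2 the sum was 1.37 CPM, against 16.3 and 23.3 CPM in the other wild type libraries. Only 2 of the 6 pallial genes were high enough to test. Outside replicate 2 most of the sum was Tbr1, with 159, 1 and 395 counts in the null and 141, 7 and 200 counts in the wild type libraries. Neurog2 went the other way in the wild type, with 0, 4 and 1 counts. The pan-neuronal genes summed to 2358 CPM in null replicate 2, against 3505 and 3878 CPM in the other null libraries. In wild type replicate 2 the sum was 2817 CPM, against 3854 and 3779 CPM in the other wild type libraries. With the block, 1 of 7 pan-neuronal genes rose (Elavl4, log2 fold change 0.32, edgeR, adjusted p = 0.0203) and 1 fell (Tubb3, -0.40, edgeR, adjusted p = 5.58e-05). Of 2 tested pallial genes 1 rose (Tbr1, 0.81, edgeR, adjusted p = 0.0238). Of all tested genes 2.22% rose and 1.78% fell. Without the block 0 genes of these 2 lists were called.

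Levels are given as deposited FPKM, which are scaled by gene length, so comparisons between genes depend on the lengths used. Of the 87 genes, 21 had a mean of at least 1 FPKM over the 6 libraries, 34 lay between 0.1 and 1 FPKM, 24 were detected below 0.1 FPKM, and 8 had no count in any library. The highest levels were those of Kcnk10, a K2P channel of the TREK group that is opened by membrane stretch and lipids, and of Kcnn1, a small-conductance calcium-activated (SK) channel. Kcnk10 had 11.4, 12 and 9.59 FPKM in the null and 11, 12.3 and 9.91 FPKM in the wild type libraries. Kcnn1 had 11.7, 7.23 and 10.4 FPKM in the null libraries, against 12.9, 11.1 and 12.1 FPKM in the wild type libraries. These 2 genes together made up 24.4% of the summed member FPKM in the null and 26.6% in the wild type libraries. Among the genes next below them were Kcna3, Kcnh4, Kcnd3, Kcnab3 and Kcnh2, whose means lay between 3.64 and 4.76 FPKM in the null and between 3.34 and 5.32 FPKM in the wild type libraries. Neighbours among these 5 lay within each other's spread, so their order is not resolved. By counts over the 6 libraries, Kcnd3 (2845) lay above Kcnn1 (2517) and Kcnk10 (1614). The lengths implied by the FPKM were 11970 bases for Kcnd3, 4054 for Kcnn1 and 2533 for Kcnk10. Of the 20 genes with the highest mean FPKM over all libraries, 11 encode voltage-gated pore-forming subunits. The lists of the 20 highest genes drawn up for each genotype held the same 20 genes.

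**Figure D1:**
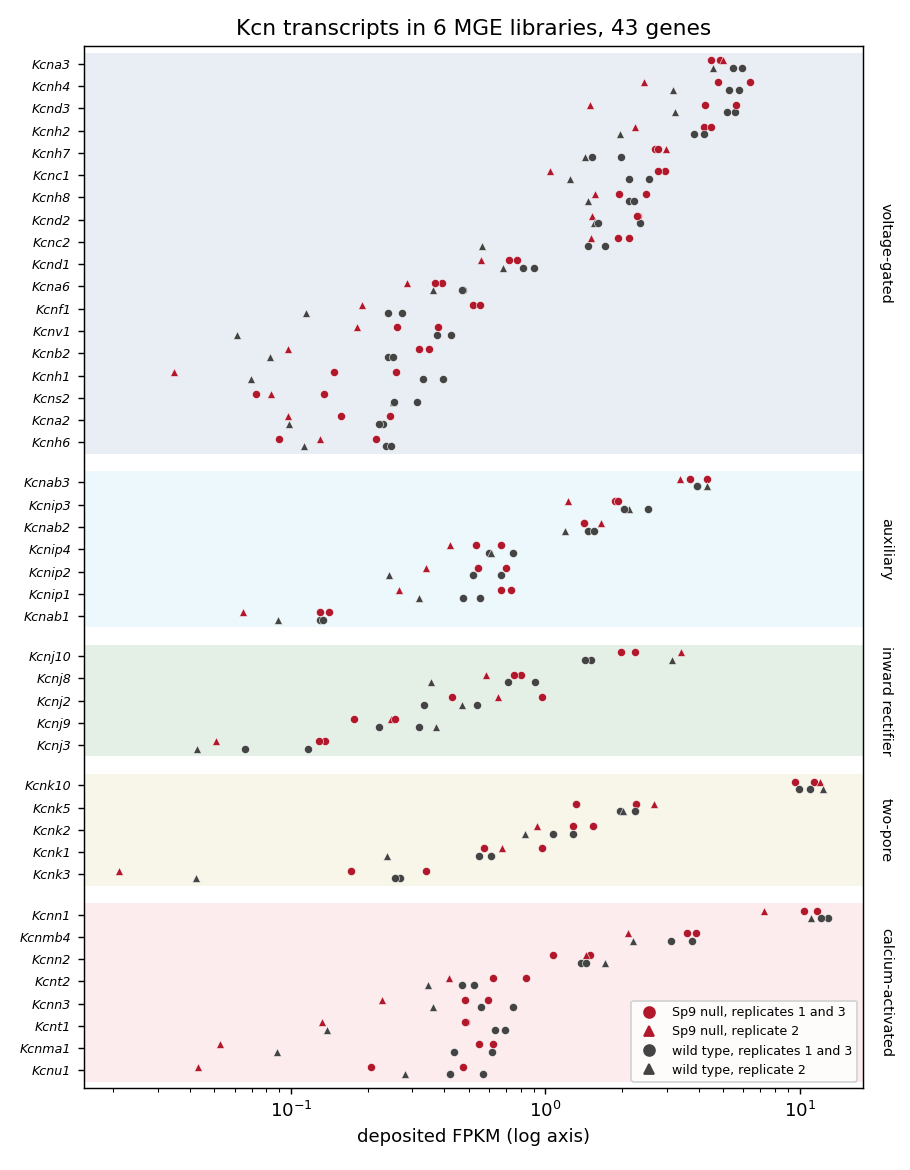
Deposited FPKM (x axis, log scale) of 43 of the 45 tested Kcn genes, ordered by class and mean level, with 1 point per library: Sp9 null in red above, wild type in dark grey below, and triangles for replicate 2. Kcnk10 and Kcnn1 lie farthest right, at means of 11 and 10.9 FPKM over the 6 libraries, the red and grey points of Kcnh7 do not overlap, and many triangles lie left of the circles.

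Summed over each class, the values of the 2 genotypes overlapped in all 5 classes. Between libraries of the same number, the null sum was lower in all 3 pairs for the auxiliary and the calcium-activated genes and higher in all 3 pairs for the inward rectifiers, which was not tested. The voltage-gated sum was 37.6 ± 8.93 FPKM in null and 37.3 ± 8.86 FPKM in wild type libraries (SD, n = 3 each). The auxiliary sum was 9.11 ± 1.09 FPKM in null and 9.97 ± 0.436 FPKM in wild type libraries. The inward rectifier sum was 5.83 ± 0.629 FPKM in null and 5.05 ± 0.736 FPKM in wild type libraries. The K2P sum was 15.7 ± 1.26 FPKM in null and 15.6 ± 0.318 FPKM in wild type libraries, and the calcium-activated sum 16.6 ± 4.18 FPKM in null and 19.0 ± 2.27 FPKM in wild type libraries. In RNA of whole tissue, fewer cells of a type and less RNA per cell cannot be told apart.

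The comparison of Sp9 null with wild type MGE asks which transcripts differ when Sp9 is lost. A default expression filter left 45 of the 87 Kcn genes to test, namely 20 voltage-gated, 7 auxiliary, 5 inward rectifier, 5 K2P and 8 calcium-activated. By the edgeR quasi-likelihood test with genotype as its only term, 0 of the 45 had an adjusted p under 0.05. Of all 14929 tested genes 0.147% did, 0.0469% higher and 0.1% lower. At an unadjusted p under 0.05 there were 2 of the 45, Kcnh7 and Kcns2, where 5.91% of all tested genes were. Kcns2 passed the expression filter only through its wild type libraries. DESeq2 with the same design called 1, Kcnh7. With the replicate number as a block, 2 of the 45 rose and 0 fell, where 2.22% of all tested genes rose and 1.78% fell (4.0% together). The 2 were Kcnh7 and Kcnc2, both voltage-gated. With libraries scaled by their totals, the blocked fit called 257 genes higher and 301 lower over the whole table, against 332 and 265 with TMM scaling. At an unadjusted p under 0.05 with the block there were 9 of the 45, where 17.2% of all tested genes were. The median log2 fold change of the 45 was 0.009, and that of all tested genes -0.0046. Of the 45, 23 had a log2 fold change above 0 and 22 below. The null CPM lay wholly above the wild type CPM for 1 of the 45 and wholly below for 2, where 4.95% of all tested genes lay above and 8.06% below (13.0% together). Kcns2 was among those below.

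**Figure D2:**
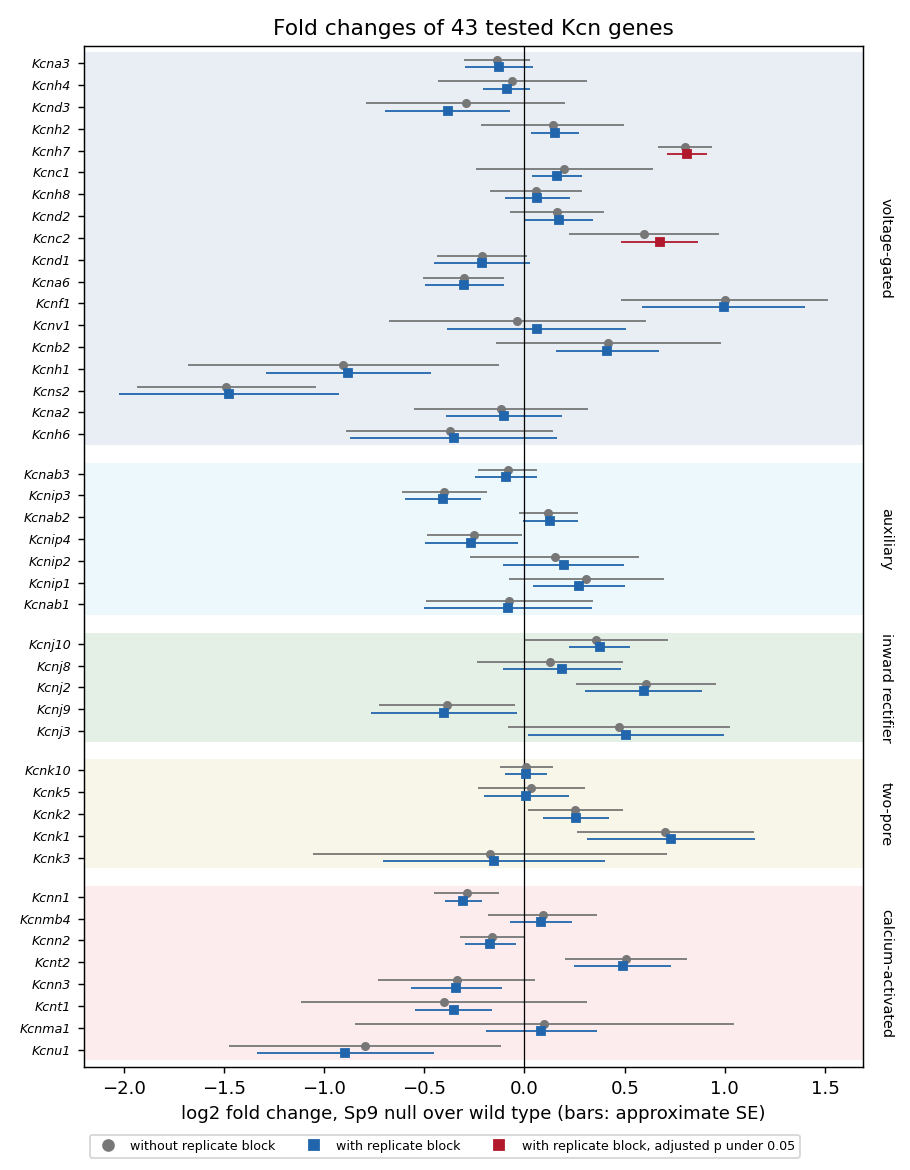
Log2 fold changes (x axis, Sp9 null over wild type) of 43 of the 45 tested Kcn genes by class, with bars of 1 approximate SE: grey circles for the fit without and squares for the fit with the replicate block, red where the adjusted p was under 0.05. Kcnh7 and Kcnc2 are the 2 red squares, at 0.81 and 0.67, and the points of Kcnk10 lie next to the zero line.

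Kcnh7 had the smallest p of the Kcn genes in both fits. It encodes a voltage-gated subunit of the ether-a-go-go related (ERG) group, whose slow currents adjust neuronal excitability. The Sp9 null libraries had 2.71, 2.98 and 2.78 FPKM, from 337, 597 and 478 counts, against 1.52, 1.43 and 1.98 FPKM in the wild type libraries, from 265, 285 and 359 counts. The 3 null values lay close together and above all 3 wild type values. The means were 2.82 ± 0.142 FPKM in null and 1.65 ± 0.296 FPKM in wild type libraries (SD, n = 3 each). With the block its log2 fold change was 0.81, with an SE of 0.10 (edgeR, adjusted p = 1.66e-06). Without it the value was 0.80, with an SE of 0.14 (edgeR, adjusted p = 0.120), and the gene was not called. Within the pairs of libraries with the same number, the log2 ratio of null over wild type CPM was 0.83, 1.06 and 0.48 for numbers 1, 2 and 3. With the block, Kcnh7 stayed called with each pair left out in turn, at edgeR adjusted p from 2.32e-07 to 0.0158, and by DESeq2, at adjusted p = 4.67e-05.

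Kcnh7 lies on chromosome 2 (62693414 to 63184287, GRCm38), 10.1 Mb from Sp9. With the block, 13.9% of the 187 tested genes within 20 Mb of Sp9, Kcnh7 among them and Sp9 left out, rose (19.3% rose or fell), against 2.08% of the tested genes elsewhere (3.8% rose or fell). The part of that neighbourhood in the change of Kcnh7 was not tested. The end of Kcnh7 overlaps Gca, which encodes the calcium-binding protein grancalcin, over 0.696 kb. Gca had 186, 365 and 262 counts in the null and 208, 268 and 183 counts in the wild type libraries. Its blocked log2 fold change was 0.47, with an SE of 0.11 (edgeR, adjusted p = 0.00832), and it was no longer called without pair 2 or without pair 3 (adjusted p up to 0.219). Since the strandedness of the libraries is not stated, reads in the overlap cannot be told apart. Kcnj3, a subunit of G protein-gated inward rectifiers, is the other Kcn gene within 20 Mb of Sp9, at 17.7 Mb. It had 10, 6 and 13 counts in the null and 12, 5 and 7 counts in the wild type libraries, and its log2 fold change of 0.47, with an SE of 0.55 (edgeR, adjusted p = 0.951), was not detectable at this depth. Farther away on chromosome 2, Kcnt1 and Kcnip3 lay 47.4 and 54.2 Mb from Sp9. Their log2 fold changes were -0.40 and -0.40, and neither was called in either fit.

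Kcnc2 encodes a Kv3 (Shaw-related) subunit found in fast-firing interneurons. It had 2.13, 1.51 and 1.93 FPKM in the null libraries, from 90, 103 and 113 counts. The wild type libraries had 1.71, 0.562 and 1.46 FPKM, from 101, 38 and 90 counts. The null and wild type ranges overlapped, and wild type replicate 2 was the lowest of the 6 libraries. With the block its log2 fold change was 0.67, with an SE of 0.19 (edgeR, adjusted p = 0.0426). Without it the value was 0.60, with an SE of 0.37 (edgeR, adjusted p = 0.897). Within pairs 1, 2 and 3 the log2 ratio was 0.31, 1.40 and 0.40. Kcnc2 was no longer called without pair 2, where the fitted change was 0.37 (edgeR, adjusted p = 0.529), without pair 3 (adjusted p = 0.162), with library total scaling (adjusted p = 0.0543), or by DESeq2 with the block (adjusted p = 0.578).

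**Figure D3:**
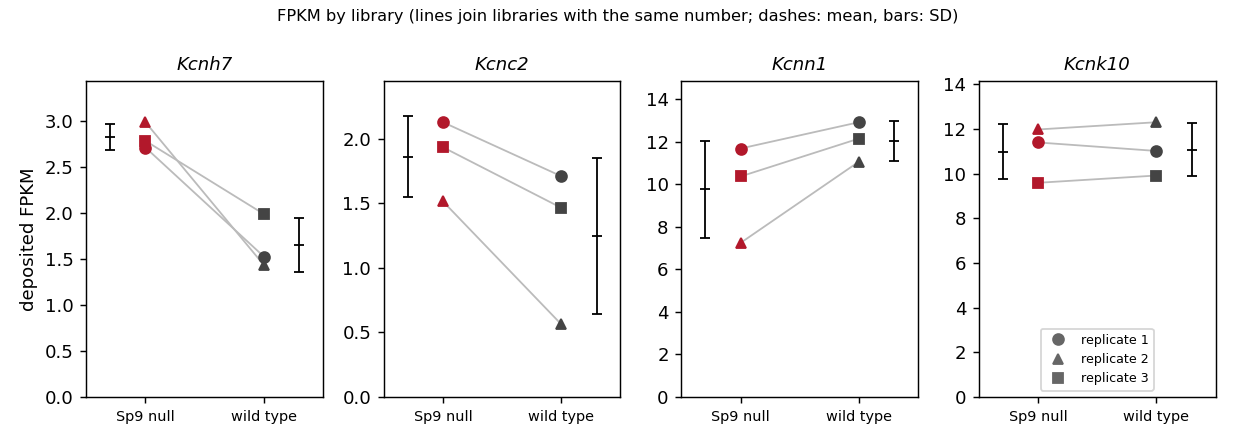
Deposited FPKM (y axis, from 0) of Kcnh7, Kcnc2, Kcnn1 and Kcnk10 in each Sp9 null (red) and wild type (dark grey) library. Lines join libraries with the same replicate number, and dashes with bars give the mean and SD of each genotype (n = 3). All 3 lines of Kcnh7 and Kcnc2 are higher at the null end, the 3 Kcnn1 lines are lower there, and the Kcnk10 lines are nearly level.

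The promoter windows of these 4 genes are shown because they belong to the 2 called genes and the 2 most abundant ones. They come from RefSeq on GRCm38.p6 and span 250 bases before to 50 bases after a transcription start, read in the direction of the gene. Where a gene has several windows, the 1 whose start lies nearest to the gene's beginning in the deposited table was taken, at 0 bases for Kcnh7, Kcnc2 and Kcnn1 and at 273 bases for Kcnk10. Capitals mark the GC box GGGCGG on either strand (CCGCCC where it lies on the opposite strand), the kind of sequence that zinc fingers of the Sp family are known to bind. The windows are chr2:63184238-63184537 (minus strand) for Kcnh7, chr10:112270873-112271172 (plus strand) for Kcnc2, chr8:70856959-70857258 (minus strand) for Kcnn1 and chr12:98578164-98578463 (minus strand) for Kcnk10.
Kcnh7: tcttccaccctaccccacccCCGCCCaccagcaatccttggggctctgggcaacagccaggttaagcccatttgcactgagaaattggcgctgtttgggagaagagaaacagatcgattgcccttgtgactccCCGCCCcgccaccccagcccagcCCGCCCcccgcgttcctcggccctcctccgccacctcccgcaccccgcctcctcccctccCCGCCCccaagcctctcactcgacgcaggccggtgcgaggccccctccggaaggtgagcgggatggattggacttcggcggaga
Kcnc2: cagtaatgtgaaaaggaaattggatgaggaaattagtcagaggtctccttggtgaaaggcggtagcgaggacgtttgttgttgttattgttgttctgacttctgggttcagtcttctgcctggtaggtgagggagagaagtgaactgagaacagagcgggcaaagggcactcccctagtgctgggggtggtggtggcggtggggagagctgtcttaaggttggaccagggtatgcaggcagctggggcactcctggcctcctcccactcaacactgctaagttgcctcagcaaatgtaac
Kcnn1: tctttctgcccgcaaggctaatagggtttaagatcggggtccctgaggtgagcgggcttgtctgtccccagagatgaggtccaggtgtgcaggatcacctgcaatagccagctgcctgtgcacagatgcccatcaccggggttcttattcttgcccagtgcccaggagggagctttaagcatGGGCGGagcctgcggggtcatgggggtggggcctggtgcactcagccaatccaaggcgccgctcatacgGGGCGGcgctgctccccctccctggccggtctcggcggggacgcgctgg
Kcnk10: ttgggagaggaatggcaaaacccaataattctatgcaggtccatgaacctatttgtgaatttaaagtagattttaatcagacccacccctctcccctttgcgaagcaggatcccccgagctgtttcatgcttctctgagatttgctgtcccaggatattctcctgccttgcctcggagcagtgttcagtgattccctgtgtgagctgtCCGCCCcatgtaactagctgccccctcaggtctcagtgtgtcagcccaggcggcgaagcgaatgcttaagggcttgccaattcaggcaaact
The Kcnh7 window held 4 GC boxes, all as CCGCCC, and the Kcnc2 window 0. The Kcnn1 window held 2 and the Kcnk10 window 1. Windows were listed for 66 of the 87 Kcn genes. At least 1 GC box was found in 48.9% of their 90 windows and in 35.7% of all 32851 windows of the same length. These matches describe the letters of the windows and not bound sites.

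Among the other voltage-gated genes, 18 tested members did not pass in either fit. Kcna3, which encodes a Shaker-type subunit, had 4.85, 4.98 and 4.46 FPKM in the null and 5.46, 4.58 and 5.94 FPKM in the wild type libraries, and its log2 fold change was -0.14 (SE 0.16). Kcnh4, of the ELK branch of the ether-a-go-go family, had 6.39, 2.44 and 4.75 FPKM in the null and 5.77, 3.17 and 5.27 FPKM in the wild type libraries. The genotypes overlapped in both of these genes, and Kcnh4 was lowest in replicate 2 of both. The fitted changes of this class ranged from -1.49 for Kcns2 to 1.0 for Kcnf1. Both encode silent subunits, which form no channel alone and modify those of other voltage-gated subunits. Kcns2 had 4, 4 and 3 counts in the null and 13, 12 and 11 counts in the wild type libraries. The groups did not overlap, but Kcns2 passed the expression filter only through its wild type libraries. Its lower null values are thus partly fixed by that filter. Its SE was 0.45, and it did not pass (edgeR, adjusted p = 0.635, and 0.132 with the block). Kcnf1 had 17, 10 and 25 counts in the null and 11, 6 and 13 counts in the wild type libraries, with more CPM in the null library of all 3 pairs. Its SE was 0.52, and it did not pass (edgeR, adjusted p = 0.897, and 0.180 with the block). Of the A-type Kv4 genes, Kcnd3 had 4.22, 1.5 and 5.59 FPKM in the null and 5.55, 3.23 and 5.19 FPKM in the wild type libraries. Its blocked log2 fold change was -0.38, with an SE of 0.31 (edgeR, adjusted p = 0.659). Kcnd3 was chosen for mention after its values were seen, because with the block and without pair 3 it was called lower, at adjusted p = 0.00874. It overlaps the antisense gene Kcnd3os, which had 97 counts over the 6 libraries. Kcnh2, another ERG gene, known for cardiac repolarization, was at 3.64 ± 1.22 FPKM in null and 3.34 ± 1.20 FPKM in wild type libraries (SD, n = 3 each). It was likewise chosen after its values were seen, and its log2 fold change was 0.14 (SE 0.36).

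Of the 7 tested auxiliary subunit genes, 0 were called in either fit, and their median log2 fold change was -0.08. Kcnab3 and Kcnab2 encode cytoplasmic beta subunits of Shaker-type channels. Kcnab3 was at 3.80 ± 0.489 FPKM in null and 4.07 ± 0.217 FPKM in wild type libraries (SD, n = 3 each), and it overlaps the antisense gene Kcnab3os, which had 237 counts over the 6 libraries. Kcnab2 was at 1.5 ± 0.137 FPKM in null and 1.41 ± 0.187 FPKM in wild type libraries. Kcnip3, a calcium-binding partner of Kv4 channels that is also known as a transcriptional repressor, had 1.87, 1.23 and 1.93 FPKM in the null libraries. The wild type libraries had 2.52, 2.14 and 2.03 FPKM, so the groups did not overlap. Its log2 fold change was the lowest of the class, -0.40 with an SE of 0.21, and did not pass (edgeR, adjusted p = 0.897, and 0.257 with the block). The highest was that of Kcnip1, another Kv4 partner, 0.31 with an SE of 0.39 (edgeR, adjusted p = 0.955). Kcnip1 had 53, 31 and 67 counts in the null and 56, 37 and 50 counts in the wild type libraries.

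Of the 5 tested inward rectifiers, 0 were called in either fit, and 4 had a log2 fold change above 0, with a class median of 0.36. Kcnj10, the Kir4 channel gene of glial cells, was the most abundant of them, with 2.25, 3.42 and 1.98 FPKM in the null and 1.51, 3.13 and 1.44 FPKM in the wild type libraries. Replicate 2 was the highest library in both genotypes, and the null library was higher in all 3 pairs. With the block the log2 fold change was 0.38, with an SE of 0.15 (edgeR, adjusted p = 0.177). Kcnj2, a strong inward rectifier, had the highest fitted change of the class, 0.61 with an SE of 0.35 (edgeR, adjusted p = 0.897, and 0.283 with the block). It rests on 36, 39 and 22 counts in the null and 28, 28 and 18 counts in the wild type libraries. Kcnj9, a G protein-gated subunit gene, had the lowest, -0.39 with an SE of 0.34 (edgeR, adjusted p = 0.928), from 8, 18 and 16 counts in the null and 14, 27 and 21 counts in the wild type libraries. Kcnj8 and Kcnj11 encode the pores of ATP-sensitive channels, and Kcnj8 is a known pericyte gene. Kcnj8 was at 0.714 ± 0.115 FPKM in null and 0.661 ± 0.282 FPKM in wild type libraries (SD, n = 3 each), with a log2 fold change of 0.13 (SE 0.36). The 6 pericyte markers summed to 57.0 to 75.0 CPM in the null and 65.6 to 71.3 CPM in the wild type libraries. Kcnj11 had 11, 3 and 6 counts in the null and 15, 6 and 8 counts in the wild type libraries and was not tested.

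The 5 tested K2P genes also held 0 called genes in either fit. Kcnk10 had a log2 fold change of 0.01, with an SE of 0.13 (edgeR, adjusted p = 0.997), the fitted value nearest to 0 among the 45 in the fit without the block. Its sign turned when libraries were scaled by their totals. Kcnk2, which encodes another TREK channel, was at 1.25 ± 0.309 FPKM in null and 1.06 ± 0.226 FPKM in wild type libraries (SD, n = 3 each), with a log2 fold change of 0.25 (SE 0.24). Kcnk5, an alkaline-activated channel gene, had 2.26, 2.68 and 1.32 FPKM in the null and 1.96, 2.02 and 2.25 FPKM in the wild type libraries. Its log2 fold change was 0.03 (SE 0.27), and the null libraries spread more widely than the wild type libraries. Kcnk1, a weak inward rectifying leak channel gene, had the highest fitted change of the class, 0.70 with an SE of 0.44 (edgeR, adjusted p = 0.897, and 0.382 with the block). It rests on 9, 17 and 21 counts in the null and 12, 6 and 14 counts in the wild type libraries. Kcnk3, an acid-sensitive channel gene, had the lowest, -0.17 with an SE of 0.88 (edgeR, adjusted p = 0.997), from 10, 1 and 7 counts in the null and 11, 2 and 11 counts in the wild type libraries.

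Of the 8 tested genes of calcium-activated channels and their relatives, 0 were called in either fit. Their median log2 fold change was -0.23, and 5 of the 8 lay below 0. Kcnn1 had less CPM in the null library of all 3 pairs, with log2 ratios of -0.14, -0.61 and -0.23. Its log2 fold change was -0.29, with an SE of 0.16 (edgeR, adjusted p = 0.897). With the block it lay just outside the threshold, at -0.31 with an SE of 0.09 (edgeR, adjusted p = 0.0511). Kcnn2, another SK gene, was at 1.34 ± 0.231 FPKM in null and 1.52 ± 0.178 FPKM in wild type libraries (SD, n = 3 each), with a log2 fold change of -0.16 (SE 0.16). Kcnmb4, the neuronal beta subunit gene of the large-conductance (BK) channel, was at 3.20 ± 0.965 FPKM in null and 3.03 ± 0.776 FPKM in wild type libraries. It overlaps Kcnmb4os1 and Kcnmb4os2, which had 160 and 276 counts over the 6 libraries. The BK pore gene Kcnma1 lay lower, at 0.408 ± 0.310 FPKM in null and 0.380 ± 0.268 FPKM in wild type libraries. The sodium-activated channel gene Kcnt2 had the highest fitted change, 0.51 with an SE of 0.30 (edgeR, adjusted p = 0.897, and 0.290 with the block). Kcnu1, whose channel is known from sperm, had the lowest, -0.80 with an SE of 0.68 (edgeR, adjusted p = 0.926, and 0.290 with the block), from 6, 2 and 19 counts in the null and 17, 13 and 24 counts in the wild type libraries. Like Kcns2, Kcnu1 passed the expression filter only through its wild type libraries.

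Replicate 2 of both genotypes also stood apart in the Kcn genes. It lay below the mean of replicates 1 and 3 in both genotypes for 35 of the 45 tested members (77.8%), against 38.3% of all tested genes, on the log2(CPM + 0.5) scale. This was so for 18 of 20 voltage-gated, 7 of 8 calcium-activated, 5 of 7 auxiliary and 3 of 5 K2P genes, and for 2 of 5 inward rectifiers. The widest differences were those of Kcnma1, a gene of mature neurons and muscle, in the null libraries and of Kcnt1 in the wild type libraries. Kcnma1 had 6 counts in null replicate 2, against 39 and 61 in the other null libraries, and 10 in wild type replicate 2, against 61 and 45 in the other wild type libraries. Kcnt1, a sodium-activated channel gene, had 28 counts in null replicate 2, against 64 and 88 in the other null libraries, and 29 in wild type replicate 2, against 116 and 132 in the other wild type libraries. Kcnj10 went the other way, with 203 counts in null replicate 2, against 83 and 101 in the other null libraries, and 185 in wild type replicate 2, against 78 and 77 in the other wild type libraries. The sum of the hypothalamic genes, like those of the pallial and pan-neuronal genes above, was lower in replicate 2, with 0.546 CPM in null replicate 2, against 4.98 and 6.57 CPM in the other null libraries, and 1.01 CPM in wild type replicate 2, against 3.57 and 4.24 CPM in the other wild type libraries. The sum of the 6 radial glia genes was higher there, with 2701 CPM in null replicate 2, against 2363 and 2006 CPM in the other null libraries, and 2862 CPM in wild type replicate 2, against 2213 and 2339 CPM in the other wild type libraries. Of these, Fabp7 was lower in null replicate 2, with a log2 difference of -0.18, and Slc1a3 differed by 0.02 in null and 0.05 in wild type replicate 2. The part of these cell type genes in the differences of the Kcn genes was not tested. Only 1 of the 4 hypothalamic genes passed the expression filter, so their sum rests on few counts.

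**Figure D4:**
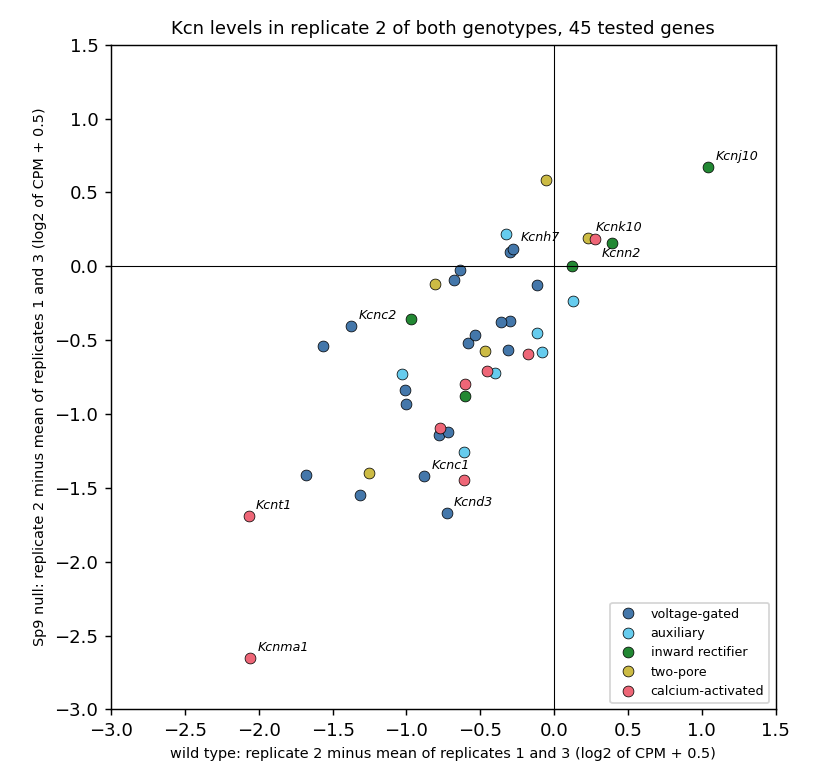
Difference of replicate 2 from the mean of replicates 1 and 3 on the log2(CPM + 0.5) scale, in Sp9 null libraries (y axis) against wild type libraries (x axis), for the 45 tested Kcn genes coloured by class. Of the 45 points 35 lie in the lower left part, Kcnma1 and Kcnt1 farthest out, and Kcnj10 lies at the upper right.

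The other 42 Kcn genes were too low to test. They comprised 15 voltage-gated, 4 auxiliary, 10 inward rectifier, 9 K2P and 4 calcium-activated genes. No count was found in any library for Kcna10, Kcna7, Kcne1, Kcng4, Kcnk16, Kcnk18, Kcnmb3 and Kcnv2, which at a floor of 3 counts allows up to 0.273 to 0.439 CPM per library. Kcne2, a single-pass auxiliary subunit known from gastric parietal cells and choroid plexus, was the 1 Kcn gene with 0 counts in all null libraries and at least 1 count in every wild type library. Its counts in the wild type libraries were 1, 5 and 3, and it was chosen for mention after its values were seen. At a floor of 3 counts per library the counts give no bound on a fold change. Beside it, 11 known stomach and pancreas genes summed to 0 counts in the null libraries and to 978, 1104 and 1295 counts in the wild type libraries. These genes were chosen after values of these libraries were seen, so the difference between their sums is not a test. Their part in the Kcne2 counts was not tested.

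Several Kcn genes lie side by side in the genome, and 9 pairs of neighbours were no more than 100 kb apart. Kcna3 and Kcna2, 63.1 kb apart on chromosome 3, were at 4.76 and 0.167 FPKM in null and at 5.32 and 0.184 FPKM in wild type libraries, while Kcna10 next to them had no count. Kcnj9 and Kcnj10, 11.9 kb apart on chromosome 1, were at 0.227 and 2.55 FPKM in null and at 0.304 and 2.03 FPKM in wild type libraries. Kcnk5 and Kcnk16, 81.0 kb apart on chromosome 14, were at 2.09 and 0 FPKM in null and at 2.08 and 0 FPKM in wild type libraries. Levels thus differed widely within each of these 3 pairs. Kcnip1 overlaps the beta subunit gene Kcnmb1, which had 8 counts over the 6 libraries.

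Partners of these channels outside the name rule were read from the same fits. Of 11 tested auxiliary proteins, 0 passed in the fit on genotype alone. The blocked fit called 1 of them higher, where it called 2.22% of all tested genes higher. This was Lgi1, a secreted protein gene linked to Kv1 channels. Lgi1 had 112, 111 and 190 counts in the null and 94, 59 and 101 counts in the wild type libraries. Its blocked log2 fold change was 0.90, with an SE of 0.16 (edgeR, adjusted p = 2.03e-04), and it stayed called with each pair left out in turn, at adjusted p from 1.69e-04 to 0.0412. Vapa, whose membrane contact protein clusters voltage-gated channels, was the most abundant partner, at 74.3 FPKM in null and 72.8 FPKM in wild type libraries. Among 11 tested genes of sodium pump subunits and cation-chloride transporters, 0 passed in the fit on genotype alone, and the blocked fit called 2 higher, beside the same 2.22% of all tested genes. Slc12a2, the sodium-potassium-chloride importer that keeps chloride high in immature neurons, was at 16.6 ± 3.61 FPKM in null and 12.3 ± 0.741 FPKM in wild type libraries (SD, n = 3 each). Its blocked log2 fold change was 0.44, with an SE of 0.08 (edgeR, adjusted p = 0.00153), and it was no longer called without pair 2 (adjusted p = 0.221). Slc12a7, a potassium-chloride exporter gene, had a blocked value of 0.23 with an SE of 0.07 (edgeR, adjusted p = 0.0403) and was called in 0 of the 3 fits with a pair left out. Atp1b3, a sodium pump beta subunit gene, was the most abundant of these genes, at 38.4 FPKM in null and 40.6 FPKM in wild type libraries. Of the 3 tested Hcn genes, which encode hyperpolarization-activated cation channels, 0 were called in either fit, and the most abundant, Hcn3, was at 4.60 FPKM in null and 4.77 FPKM in wild type libraries.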

How the data were processed

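RNA-seq of 3 Sp9 null and 3 wild type MGE samples was analysed from a table of all genes. Its deposited values are, per the file headers, whole-number counts and FPKM for every library. TopHat, Cufflinks 2.1.1 and GRCm38.p4 are listed without roles in the submitters' processing notes, and no source names a counting program. Deposited FPKM equalled count divided by length and library total (relative tolerance 0.001) for 21180 of 21180 genes counted in at least 2 libraries. The number of unused sample columns was 0.

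Counts were tested with edgeR 4.0.16 (R 4.3.3, quasi-likelihood, TMM scaling, default filter, robust, two-sided), with Benjamini-Hochberg adjustment over all 14929 tested genes and a threshold of 0.05. The fits were first tested on simulated data. An SE here is the size of the log2 fold change divided by the root of the F statistic. Floors cover counting error only. Genotype was the only term. Deviations from genotype means correlated across genes by 0.334, 0.737 and 0.551 between libraries numbered 1, 2 and 3, all over 0.1, so libraries of 1 number were treated as pairs, from the data and not from the labels. Numbers 1 and 3 are not clearly told apart, since null 3 correlated by 0.365 with wild type 1 and null 1 by 0.229 with wild type 3. Replicate 2 correlated negatively with the other numbers, from -0.631 to -0.383. Deviations from a genotype mean cancel out over its 3 libraries. A replicate 2 that stands apart in both genotypes therefore pushes these values down and those among numbers 1 and 3 up. The check thus cannot settle pairs 1 and 3, on which the blocked calls also rest. A fit with the number as a block is given beside a result where it changes a call. DESeq2 1.42.0, other scalings, no filter and left-out libraries were the alternatives. Replicates differed by more than counting noise (chi-square per degree of freedom 3.28 to 21.9).

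The members, lists and tests were chosen with earlier results of these data known. Named genes were members called in either fit, the 3 highest by FPKM and the extremes of fold change in each class, and members within 20 Mb of Sp9. Outside this rule, Kcnd3, Kcnh2, Kcne2, Kcnma1 and Kcnt1 were chosen after their values were seen, Kcnma1 and Kcnt1 for their replicate 2 differences. Kcna2 and Kcnmb1 were named for their place beside other members. The results of 2 tested members are counted but not reported here. The stomach and pancreas genes were chosen after values of these libraries were seen. Endothelial, microglial and erythroid marker lists were also read. With the block, 0 endothelial and 0 erythroid genes were called. Of 7 tested microglial genes 5 fell with the block, where 1.78% of all tested genes did. Among the 5, Aif1, C1qb and P2ry12 passed the expression filter only through their wild type libraries. The count of 5 is thus partly fixed by that filter. Without the block 0 genes of these lists were called. Of the 5, Aif1 had 4, 2 and 0 counts in the null and 11, 14 and 12 counts in the wild type libraries. C1qb had 3, 5 and 4 counts in the null and 13, 12 and 21 counts in the wild type libraries. P2ry12 had 3, 12 and 3 counts in the null and 45, 74 and 53 counts in the wild type libraries. Cx3cr1 had 15, 23 and 4 against 70, 80 and 53 counts, and Csf1r 55, 61 and 54 against 135, 154 and 134 counts.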

Additional observations from a re-analysis of the deposited data

How the results depend on the processing

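Of all tested genes, edgeR without the block called 7 higher and 15 lower (0 and 0 of them Kcn genes), with RLE scaling 7 higher and 15 lower (0 and 0 of them Kcn genes) and with library total scaling 8 higher and 16 lower (0 and 0 of them Kcn genes). With no expression filter it called 21 higher and 44 lower (1 and 0 of them Kcn genes), and DESeq2 called 37 higher and 52 lower (1 and 0 of them Kcn genes). Leaving out 1 library at a time gave 0 to 12 genes higher and 2 to 22 lower, with 0 Kcn genes called each time. With the replicate block the fit called 332 higher and 265 lower (2 and 0 of them Kcn genes), with RLE scaling 365 higher and 235 lower (2 and 0 of them Kcn genes), with library total scaling 257 higher and 301 lower (1 and 1 of them Kcn genes), with no filter 438 higher and 387 lower (2 and 1 of them Kcn genes) and with DESeq2 88 higher and 70 lower (1 and 0 of them Kcn genes). With the block, it called 667 higher and 526 lower (2 and 1 of them Kcn genes) without pair 1, 67 higher and 59 lower (1 and 0 of them Kcn genes) without pair 2 and 104 higher and 115 lower (1 and 1 of them Kcn genes) without pair 3. Kcnn1 was called lower with the block under library total scaling (edgeR, adjusted p = 0.0453), with no filter (0.0232) and without pair 1 (0.0151). It was not called with RLE scaling (0.0603), without pair 3 (0.193), by DESeq2 (0.843), or without pair 2, where its value was -0.17 (0.604).

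The sign of small log2 fold changes turned in some fits. Library total scaling gave -0.0124 for Kcnk10, and with the block -0.0142 for Kcnk10 and -0.0137 for Kcnk5. DESeq2 with the block gave -0.00493 for Kcnk5. With 1 library left out and no block, the ranges were -0.0720 to 0.0990 for Kcnk10, -0.221 to 0.281 for Kcnk5, -0.0894 to 0.322 for Kcnmb4, -0.366 to 0.243 for Kcnh4, -0.949 to 0.423 for Kcnk3 and -0.174 to 0.429 for Kcnj8. Without pair 1 the blocked value of Kcnk5 was -0.0765. With the block and 1 pair left out, the ranges were -0.00860 to 0.0205 for Kcnk10, -0.261 to 0.337 for Kcnk5 and -0.0324 to 0.150 for Kcnmb4. They were -0.0751 to 0.245 for Kcnab2, -0.193 to 0.0319 for Kcnab3 and -0.217 to 0.0150 for Kcnh4. For Kcnj8 the range was -0.0369 to 0.390, and for Kcna3 -0.282 to 0.00290. Kcnk3 failed the filter without pair 1. Its range in the other fits with a pair left out was -0.0725 to 0.132, against -0.15 with all pairs. The causes were not tested. With TMM scaling, the default filter and all libraries, the block changed the calls of Kcnh7 and Kcnc2 and of 0 other Kcn genes. Low counts limit genes such as Kcns2, Kcnj3 and Kcnk3.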
